A study of Rattus norvegicus with 16 samples.

Results

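The step from 6 to 12 h after a cortical contusion was read from 6 of the 16 arrays of the study. The 3 injured arrays of 12 h were set against the 3 injured arrays of 6 h, as their titles give them, and no sham entered the test. The animals of both groups were male Wistar rats of 8 weeks. Each had a craniectomy over the right parietal cortex, lived with a saline-filled port on the skull for 48 h, and then received a moderate lateral fluid percussion of 3.3 atm, a brief fluid pressure wave that bruises the cortex under the opening. Rats were perfused with saline and the contused cortex was dissected, 12 h after the pulse in the first group and 6 h after it in the second. Injured rats of 3 and 48 h (3 arrays each) and shams, which had the same surgery without the pulse (1 array each at 3, 6, 12 and 48 h), serve as context, and the 3, 6 and 12 h shams are called the early shams. Polyadenylated RNA was hybridized to Affymetrix rat arrays. The labels give each array an animal number of its own and name no processing day, so p-values measure the spread between these arrays.

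Values are log intensities from which the median of the 16 arrays had been subtracted for each probe set. A value of 0 is therefore a gene's middle array, and neither absolute levels nor the presence of cortical markers can be read. Probe sets were averaged per gene symbol, which gave 14218 genes. Differences are 12 h minus 6 h on the log2 scale (the base was taken as 2) with the standard error (SE) of a limma model of the 12 injured arrays. A gene was called at a Benjamini-Hochberg adjusted p under 0.05. The dissected tissue mixes neurons, glia, vessels and blood cells, and fewer cells of a type cannot be told apart from less RNA per cell. The 12 h replicate 2 stands apart from the other 5 arrays of the step. Its values spread most widely over genes (SD 0.372, against 0.199 to 0.244), and its polyA spike-in controls averaged -1.69 (24 probe sets, against -0.15 to 0.5). The hybridization controls of this array averaged -0.09 (18 probe sets), within the range of the other 5 arrays (-0.12 to 0.16). Counts over all genes and over the early and late gene sets defined below were repeated without it and without 12 h replicate 3. For the gene lists only the medians were repeated in this way, and their member counts use all arrays of the step.

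Bruised cortex releases signals that engage toll-like and interleukin-1 receptors on microglia, astrocytes and endothelium. These receptors act through NF-kB, which switches on cytokine and chemokine genes within hours and also switches on its own inhibitors, so that many early transcripts are short-lived. Interferons act through another route, in which STAT proteins and IRF9 switch on antiviral genes, among them the transcription factor IRF7, which feeds back on interferon production.

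Between 6 and 12 h the cytokine gene Il6 and the chemokine gene Ccl4 fell, and 0 genes were called higher. The called share was 0.0141% of 14218 genes in the lower direction and 0% in the higher, while the unadjusted p was under 0.05 in 1124 genes. The median difference over all genes was 0.01. Array by array, all 3 values of 12 h lay below all 3 of 6 h in 763 genes (5.37%) and above them in 922 (6.48%). These shares are the background for the counts below, and most statements on single genes other than Il6 and Ccl4 describe array values and not calls.

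Il6, which encodes the cytokine that drives acute phase and glial responses, had values of 0.05, 0.63 and -0.05 at 12 h, against 3.46, 3.57 and 2.24 at 6 h. The lowest 6 h array was well above the highest 12 h array. Il6 fell 7.36-fold, with a log2 difference of -2.88 ± 0.31 (limma, adjusted p = 0.0157). Ccl4 encodes a chemokine that attracts monocytes and T cells. Its values were -0.52, 0.52 and 0.87 at 12 h, against 2.45, 2.72 and 2.49 at 6 h, and it fell 4.80-fold (-2.26 ± 0.28, adjusted p = 0.0362). With the 6 and 12 h arrays alone in the model, which leaves 4 residual degrees of freedom in place of 8, the same differences had adjusted p = 0.275 for Il6 and 0.28 for Ccl4. Leaving out 1 array at a time, the difference of Il6 stayed between -3.30 and -2.64, with adjusted p from 0.000258 to 0.15 and no call without 12 h replicate 1 or without either of 6 h replicates 1 and 2. For Ccl4 the range was -2.55 to -1.86, with adjusted p from 0.0122 to 0.227 and the call lost without 12 h replicate 2 or any 1 of the 6 h arrays.

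The largest differences in the lower direction were in cytokine and chemokine genes and in Depp1, a gene linked to FOXO signalling and autophagy and also one of the genes raised at 3 h. Depp1 had -1.32, -1.28 and 0.12 at 12 h, against 2.00, 1.56 and 1.12 at 6 h (-2.39 ± 0.39, adjusted p = 0.112). It was called without 12 h replicate 3 (-2.86, adjusted p = 0.0131). Cxcl2 and Cxcl1 encode attractants of neutrophils. Cxcl2 had -0.56, 1.68 and 0.56 at 12 h, against 3.59, 3.31 and 2.18 at 6 h (-2.47 ± 0.49, adjusted p = 0.194). Cxcl1 had 0.02, -0.42 and 0.19 at 12 h, against 2.65, 2.59 and 1.11 at 6 h (-2.19 ± 0.63, adjusted p = 0.441). In both genes the groups did not overlap, and 6 h replicate 3 was the lowest array of its group.

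Il1b and Il1a encode the ligands of the interleukin-1 receptor. Il1b had -0.24, 0.81 and 0.24 at 12 h, against 2.44, 3.17 and 2.21 at 6 h (-2.34 ± 0.42, adjusted p = 0.151). Il1a had -0.64, 0.38 and 0.23 at 12 h, against 2.39, 1.59 and 1.02 at 6 h (-1.68 ± 0.33, adjusted p = 0.194). Ccl3, which like Ccl4 attracts monocytes, had -0.64, 1.18 and 0.64 at 12 h, against 2.45, 2.45 and 2.06 at 6 h (-1.93 ± 0.34, adjusted p = 0.148). Replicate 2 was the highest 12 h array for Il1b, Il1a, Ccl3 and Cxcl2, and the groups of these genes did not overlap with it included. Without that array Ccl3 was called, at -2.32 (adjusted p = 0.0266). Ccl9, a chemokine gene studied in mice, had a difference of -1.68 ± 0.44 (adjusted p = 0.367).

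Other ligands of the first hours did not share this pattern. Ccl7, a monocyte attractant, had 1.85, 2.78 and 2.02 at 12 h, against 1.58, 1.68 and 2.28 at 6 h, a difference of 0.37 ± 0.55. Ccl2, which acts on the same receptor, had 0.32, 1.93 and 0.94 at 12 h, against 1.79, 1.87 and 1.70 at 6 h (-0.72 ± 0.82), and its 12 h arrays spanned most of the range of both groups. Cxcl10, an interferon-induced attractant of T cells, had 2.39, 0.21 and 3.68 at 12 h, against 2.23, 2.42 and 1.07 at 6 h (0.19 ± 0.69). The arrays of the 2 times overlapped in each of these 3 genes. Tnf (0.03 ± 0.16) and Il1rn, the gene of the interleukin-1 receptor antagonist (0.01), had differences near 0, and Tnf already fell between 3 and 6 h (-0.89, adjusted p = 0.0333). The 2 probe sets of Tnf gave -0.16 and 0.21 in the step from 6 to 12 h. None of these genes passed the test, which does not show that they stayed level.

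Of 20 cytokine genes, 5 were non-overlapping and lower and 2 were higher, with a median difference of -0.04. Of 21 chemokine genes, 5 were lower and 0 higher, with a median of -0.15. Mean chemokine values per array ran from 0.45 to 0.76 at 12 h, against 0.96 to 1.22 at 6 h. Of 20 cytokine receptor genes, 0 were lower and 5 were higher (median 0.05), among them Il6st, the shared signalling chain of the Il6 family (0.28), and Tnfrsf1a, a receptor of TNF (0.47). Il1r1, the signalling receptor of interleukin-1, had a mean difference of 0.25, but its 3 probe sets gave 0.16, -0.11 and 0.69.

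**Figure D1:**
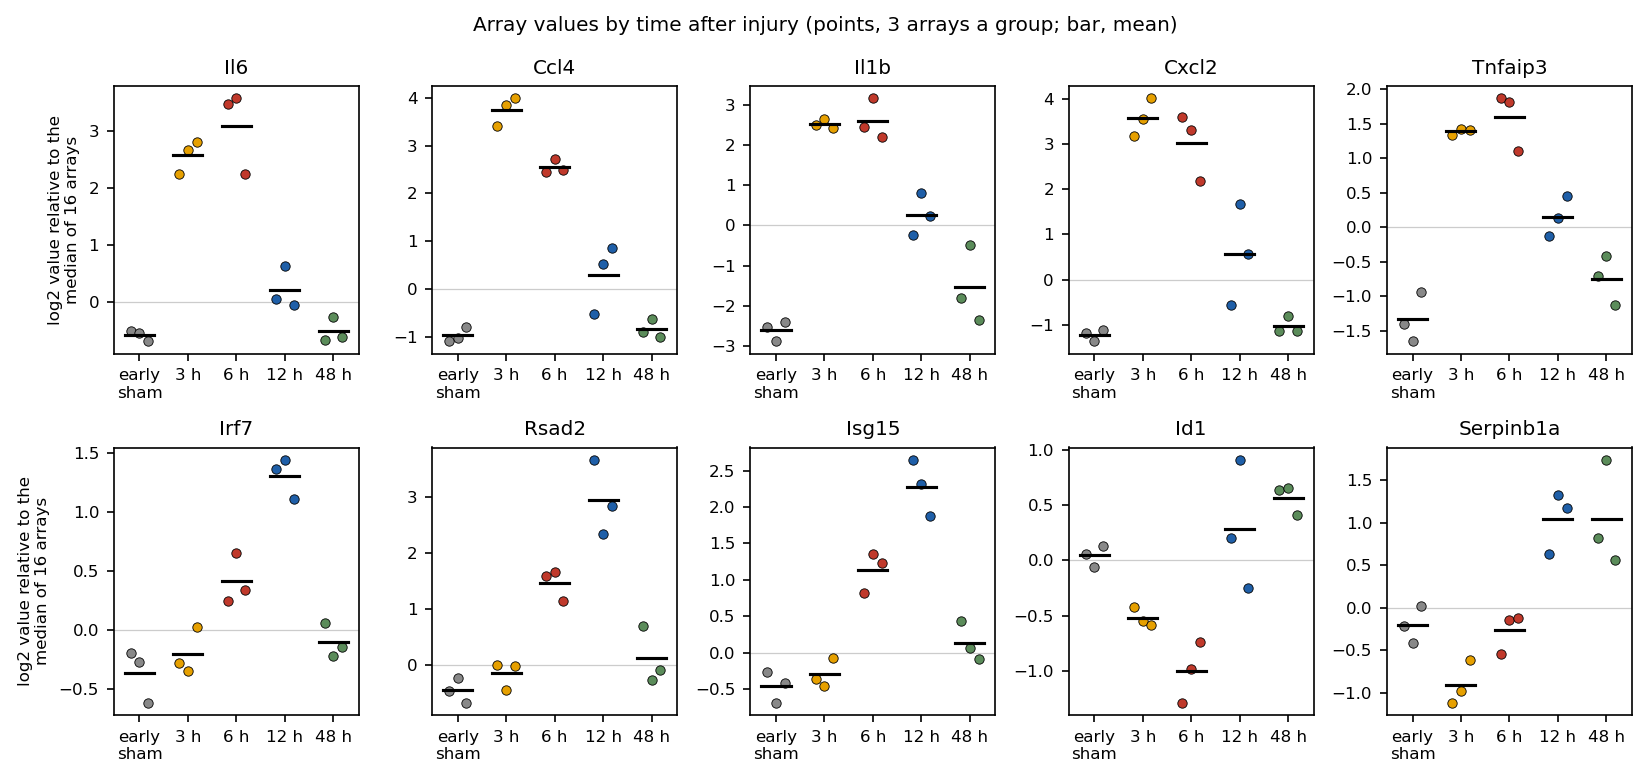
Each panel plots 1 gene: the vertical axis is the log2 value relative to the median of the 16 arrays, the horizontal axis runs from the early shams through 3, 6, 12 and 48 h after injury, points are arrays (3 a group) and bars are group means. In the top row the 12 h arrays lie below the 6 h arrays in Il6, Ccl4, Il1b, Cxcl2 and Tnfaip3, and in the bottom row they lie above them in Irf7, Rsad2, Isg15, Id1 and Serpinb1a.

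Tnfaip3 and Nfkbia, genes of inhibitors that NF-kB switches on inside the cell, had lower 12 h arrays too. Tnfaip3 encodes A20, the ubiquitin-editing enzyme that ends NF-kB signalling. It had -0.13, 0.13 and 0.46 at 12 h, against 1.87, 1.82 and 1.11 at 6 h (-1.45 ± 0.22, adjusted p = 0.0973). It was called without 12 h replicate 3 (-1.60, adjusted p = 0.0392) and without 6 h replicate 3 (-1.69, adjusted p = 0.0344). Birc3, which encodes an inhibitor of apoptosis that also acts in NF-kB signalling, had 0.30, 0.07 and 0.43 at 12 h, against 1.67, 1.71 and 0.94 at 6 h (-1.17 ± 0.26, adjusted p = 0.294). Nfkbia, the gene of the inhibitor IkB-alpha, had -0.28, 0.10 and 0.64 at 12 h, against 1.03, 1.05 and 0.74 at 6 h (-0.79 ± 0.31). In all 3 genes the groups did not overlap.

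Of 14 genes of NF-kB feedback and subunits, 6 were non-overlapping and lower and 0 were higher, with a median of -0.26. The subunit genes Nfkb1 (-0.26) and Nfkb2 (-0.34) and the regulator Nfkbiz (-0.39) completed the 6. The 2 probe sets of Nfkbiz gave -0.78 and 0.00. The mean was higher in 2 of the 14 genes, Tnip2 (0.28) and Nfkbib (0.04), which also encode regulators of the pathway. Of these 14 genes 7 had also risen at 3 h, so the list and the early genes described next are not separate observations. Mean values of the list per array ran from 0.04 to 0.24 at 12 h, against 0.42 to 0.69 at 6 h.

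Early signals were defined from differences between arrays outside the step (with the spread of all 16 arrays), as the 69 genes called higher in the 3 h injured arrays than in the early shams (0.485% of genes). In 28 of them (40.6%) the 12 h arrays all lay below the 6 h arrays, beside 5.37% of all genes. Only Irf8, which encodes a transcription factor of myeloid cells, had its 12 h arrays above (1.45%, beside 6.48%), with a difference of 0.40. The mean was lower in 56 of the 69 (46.6% of all genes), and the median difference was -0.30. Both called genes of the step were among them. Without 12 h replicate 2 the count of 28 became 49 (71%), where the share over all genes was 10%, and without each of the other 5 arrays in turn it was 29 to 32. Of the 30 genes that passed an adjusted p under 0.01 at 3 h, 14 (46.7%) were lower, with a median of -0.51.

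Haemoglobin genes were also among the 69. Hba-a3, which encodes a haemoglobin alpha chain, had non-overlapping arrays and a difference of -0.70. Hbb, the beta chain, had 0.81, 1.48 and -0.71 at 12 h, against 1.47, 2.71 and 1.45 at 6 h (-1.35 ± 0.52), and its arrays overlapped. The 4 measured erythrocyte markers had lower means and overlapping arrays, with a median difference of -0.26, and their mean per array ran from -0.26 to 0.37 at 12 h, against 0.38 to 0.90 at 6 h. The part of red cell RNA in the lower early signals was not tested.

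Immediate early genes, which need no new protein to be switched on, had counts near the shares over all genes. Of 23 such genes 0 were non-overlapping and lower (all genes 5.37%) and 1 was higher (4.35%, all genes 6.48%), with a median of 0.04. Their mean per array was 0.10, 0.62 and -0.03 at 12 h, against 0.22, 0.20 and 0.20 at 6 h. Only replicate 2 of 12 h lay above the 6 h arrays, and replicates 1 and 3 lay below them. The list averaged 0.48 at 3 h and 0.21 at 6 h. Fos (0.04 ± 0.12), Junb (0.15) and Ier2 (0.29), all called higher at 3 h, had overlapping groups. Atf3, a stress-induced transcription factor gene, had -0.25, 1.81 and -0.22 at 12 h, against 1.51, 1.61 and 1.09 at 6 h (-0.96 ± 0.49), so replicates 1 and 3 were below the 6 h arrays and replicate 2 above them. Klf4, the member with the smallest unadjusted p, was higher by 0.52.

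Adhesion genes of the vessel wall also had lower 12 h arrays. Of 9 measured genes of activated endothelium, 4 were non-overlapping and lower and 0 were higher. Sele, the selectin that slows leukocytes on endothelium, had 1.08, 2.00 and 2.61 at 12 h, against 3.23, 3.13 and 3.15 at 6 h (-1.27 ± 0.76, adjusted p = 0.715). Vcam1 had 0.02, -1.15 and -0.32 at 12 h, against 0.30, 0.51 and 0.15 at 6 h (-0.80 ± 0.25), and Icam1 had -0.10, 0.44 and 0.10 at 12 h, against 0.97, 0.96 and 0.66 at 6 h (-0.72 ± 0.24). Both encode the molecules that hold leukocytes for passage through the wall. Selp, another selectin gene, differed by -0.34. The mean was lower in 5 of the 9 and higher in 4, among them Angpt2, which loosens vessels (0.76, overlapping arrays). The median of the list was -0.11, with -0.37 after quantile normalization and -0.34 to 0.05 without 1 array.

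**Figure D2:**
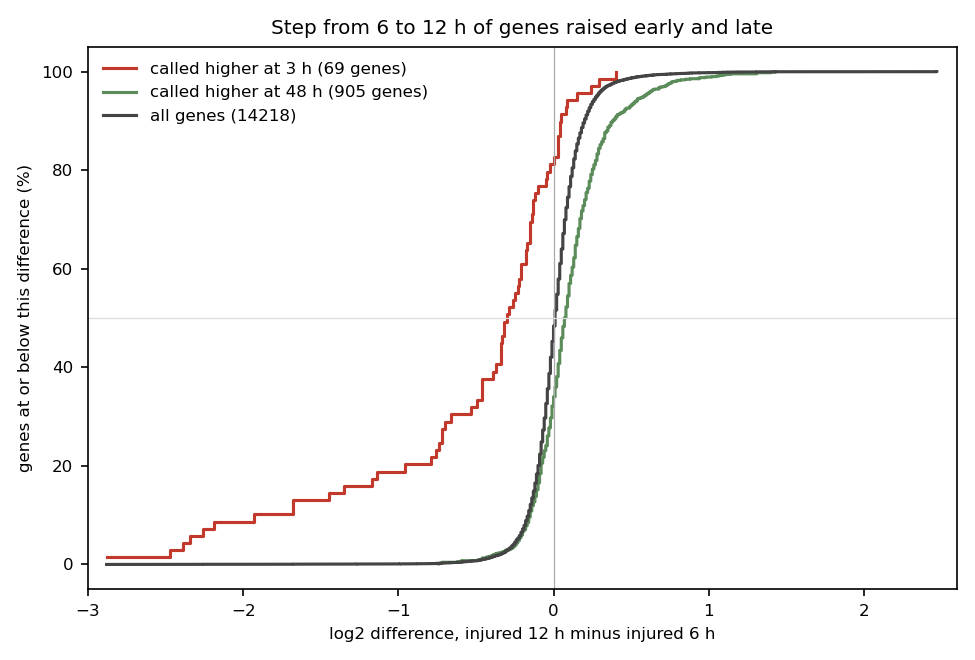
The cumulative share of genes (vertical axis, percent) is plotted against the log2 difference of injured 12 h minus injured 6 h (horizontal axis) for the 69 genes called higher at 3 h, the 905 genes called higher at 48 h and all 14218 genes. The curve of the 3 h genes lies to the left of all genes, with a median of -0.30, and that of the 48 h genes lies slightly to the right, with a median of 0.07.

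The promoters of the early genes were searched for the letters GGGNNTTTC, a form of the NF-kB element, on both strands over the 250 bases before the start in RefSeq GRCr8. Of the 28 early genes with lower 12 h arrays 22 had a promoter entry, and 9 of these (40.9%) held the letters, beside 3.7% of 33469 promoters. Shares over all promoters count promoter entries, also of genes not measured here, while shares of gene sets count measured gene symbols. Of the other 41 early genes 32 had an entry, and 3 held the letters (9.38%). The 9 genes were Ccl9, Cxcl1, Cxcl16, Cxcl2, Il6, Nfkb2, Nfkbia, Nfkbiz and Tnfaip3. This form was picked after several forms had been counted. GGGAANNTC was held by 4 of the 22 (18.2%, all promoters 3.71%) and by 5 of the 32, GGAANTTCC by 4 of the 22 (18.2%, all promoters 0.669%) and by 2 of the 32, and GGGNNNTCC by 6 of the 22 (27.3%, all promoters 14.7%) and by 6 of the 32. Some letters match more than 1 form. A match describes the letters and not a bound site. The last 150 bases before the start are shown for a cytokine, a chemokine and an inhibitor of the pathway, so that the element can be compared between genes that were lower together. Matches to GGGNNTTTC are in capitals, and the strand is that of the gene (minus in each).
Il6 (chr4:5894576-5894725): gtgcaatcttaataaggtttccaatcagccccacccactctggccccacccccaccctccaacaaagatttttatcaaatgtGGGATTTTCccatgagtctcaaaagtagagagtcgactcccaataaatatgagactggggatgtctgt
Cxcl2 (chr14:17467256-17467405): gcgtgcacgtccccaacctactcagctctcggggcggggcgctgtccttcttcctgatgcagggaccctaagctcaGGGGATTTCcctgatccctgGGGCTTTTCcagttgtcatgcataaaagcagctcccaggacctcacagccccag
Tnfaip3 (chr1:15543980-15544129): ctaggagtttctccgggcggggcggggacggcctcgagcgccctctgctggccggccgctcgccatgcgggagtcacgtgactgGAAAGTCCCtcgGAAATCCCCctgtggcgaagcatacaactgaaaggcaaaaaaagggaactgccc
Il6 holds 1 match, and Cxcl2 and Tnfaip3 hold 2 each. In Tnfaip3 both are written as the reverse complement.

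Antiviral genes of the interferon response had many members with 12 h arrays above the 6 h arrays. Irf7, the transcription factor that amplifies type I interferon, had 1.36, 1.44 and 1.11 at 12 h, against 0.24, 0.65 and 0.34 at 6 h (0.89 ± 0.14, adjusted p = 0.0973). Rsad2, whose product viperin blocks viral replication, had 3.66, 2.34 and 2.83 at 12 h, against 1.59, 1.66 and 1.15 at 6 h (1.48 ± 0.32, adjusted p = 0.277). Isg15, a ubiquitin-like modifier, had 2.65, 2.31 and 1.88 at 12 h, against 0.82, 1.35 and 1.23 at 6 h (1.15 ± 0.21, adjusted p = 0.151). The lowest 12 h array was above the highest 6 h array in all 3. None was called with 12 injured arrays, and without 12 h replicate 3 Irf7 (0.99) and Isg15 (1.35) both had an adjusted p of 0.0392. After quantile normalization the differences were smaller, at 0.57 for Irf7, 0.96 for Rsad2 and 0.62 for Isg15 (adjusted p = 0.355, 0.427 and 0.396).

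Of 24 measured type I interferon genes 0 were non-overlapping and lower and 10 (41.7%) were higher, beside 6.48% of all genes, with a median of 0.40. The mean was higher in 22. Usp18, which removes Isg15 from proteins, had a difference of 0.81 and Irf9, the DNA-binding partner of the STAT proteins, 0.63. Mx1, a GTPase that traps viral particles, had 0.57 with overlapping arrays. Mean values of the list per array were 0.98, 0.72 and 0.65 at 12 h, against 0.26, 0.48 and 0.29 at 6 h.

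These genes had lower values before 6 h and again at 48 h. The neighbouring steps share the 6 h or the 12 h arrays with the step described, so their values are given side by side and not as separate support. Isg15 rose by 1.43 ± 0.21 between 3 and 6 h (adjusted p = 0.011) and fell by 2.14 ± 0.21 between 12 and 48 h (adjusted p = 0.000227). Rsad2 rose by 1.61 between 3 and 6 h (adjusted p = 0.047) and fell by 2.82 between 12 and 48 h (adjusted p = 0.000684). Irf7 differed by 0.61 in the first of these steps (adjusted p = 0.0672) and fell by 1.41 in the second (adjusted p = 0.000255). Of the 4 injured times, 12 h had the highest mean in each of the 3 genes. The list averaged -0.30 in early shams, -0.21 at 3 h, 0.34 at 6 h, 0.78 at 12 h and 0.02 at 48 h.

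Of 14 measured genes induced mainly by interferon-gamma, 0 were lower and 6 (42.9%) were higher (median 0.29). Igtp, a GTPase acting against intracellular pathogens, had 2.30, 1.31 and 1.62 at 12 h, against 0.47, 0.96 and 1.16 at 6 h (0.89 ± 0.25, adjusted p = 0.433), and 0.48 after quantile normalization. Psmb8, an immunoproteasome subunit, had 1.18, 1.01 and 0.18 at 12 h, against -0.44, -0.15 and 0.15 at 6 h (0.94 ± 0.37), and its lowest 12 h array barely cleared the highest 6 h array. Irf1, which switches such genes on and had risen at 3 h, had a difference of -0.04, and the GTPase gene Gbp2 had -0.43. Neither interferon gene of the cytokine list was higher, with Ifnb1 at -0.20 and Ifng at -0.01.

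The promoters of the interferon genes were searched in the same way for AAANNGAAA, the core of the interferon-stimulated response element. Of 24 list members 17 had a promoter entry, and 10 of these (58.8%) held the letters, beside 10.3% of all promoters and 1 of the 22 early genes with lower 12 h arrays (4.55%). Of the 10 members with higher 12 h arrays 7 had an entry and 4 held them. A longer form of each element had been counted first and was shortened afterwards. Irf7 and Rsad2 are shown over the last 150 bases before the start, on the gene's strand (minus in each), to set the regulator beside one of the antiviral genes, with matches to AAANNGAAA in capitals.
Irf7 (chr1:205800024-205800173): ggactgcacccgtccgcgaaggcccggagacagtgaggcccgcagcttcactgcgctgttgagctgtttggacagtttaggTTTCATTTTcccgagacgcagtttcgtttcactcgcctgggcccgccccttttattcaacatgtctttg
Rsad2 (chr6:48788121-48788270): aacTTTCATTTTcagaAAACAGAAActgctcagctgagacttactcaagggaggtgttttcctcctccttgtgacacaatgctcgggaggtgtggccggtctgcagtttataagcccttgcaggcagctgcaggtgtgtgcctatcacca
Irf7 holds 1 match, written as the reverse complement, and Rsad2 holds 2, one in each orientation. Of the 17 promoters of the list 0 held GGGNNTTTC, 1 held GGGAANNTC (5.88%), 1 held GGAANTTCC (5.88%) and 2 held GGGNNNTCC (11.8%).

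Late signals were defined as the 905 genes called higher in the 48 h injured arrays than in the early shams (6.37% of genes). The 12 h arrays lay above the 6 h arrays in 121 of them (13.4%, all genes 6.48%) and below in 53 (5.86%, all genes 5.37%), with a median of 0.07. Without 12 h replicate 2 the first count was 143 (15.8%, all genes 11.6%), so its share was closer to that of all genes. Without 12 h replicate 3 it was 295 (32.6%, all genes 14.7%), and without 6 h replicate 3 it was 226 (25%, all genes 12.5%). In the other 731 the arrays of both times overlapped. Both sets shared 20 genes, of which 6 were lower and 1 was higher.

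Serpinb1a, Hspb1, Lcn2 and RGD1309362 were among the late genes farthest above their 6 h arrays. Which cells their RNA came from cannot be read from the mixed tissue. Serpinb1a, an inhibitor of neutrophil proteases, had 0.63, 1.32 and 1.17 at 12 h, against -0.54, -0.14 and -0.12 at 6 h (1.31 ± 0.28, adjusted p = 0.273), with probe sets at 1.78 and 0.84. Hspb1, a small heat shock protein of stressed astrocytes and vessels, had 2.06, 2.70 and 1.02 at 12 h, against 0.25, 0.32 and 0.92 at 6 h (1.43 ± 0.58). Lcn2, an iron-carrier binding protein of neutrophils and astrocytes, had 1.72, 0.79 and 2.13 at 12 h, against 0.06, 0.71 and -0.06 at 6 h (1.31 ± 0.44). Replicate 3 was the low 12 h array for Hspb1 and replicate 2 for Lcn2, and each only narrowly cleared the 6 h arrays. RGD1309362 had 2.22, 0.79 and 1.49 at 12 h, against 0.12, 0.31 and -0.12 at 6 h (1.40 ± 0.27, adjusted p = 0.194), and was called without 12 h replicate 2 (1.75, adjusted p = 0.0266).

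Complement genes, which tag debris and synapses for removal, had 3 of 9 higher and 0 lower, with a median of 0.52 and all 9 means higher. Serping1, the inhibitor of C1, had 1.55, 0.76 and 0.50 at 12 h, against -0.31, -0.18 and 0.10 at 6 h (1.07 ± 0.27, adjusted p = 0.367). It had been called lower at 3 h, rose by 1.93 between 3 and 6 h and rose by 1.25 between 12 and 48 h. C1r, the protease it inhibits, had 0.59, 0.29 and 0.34 at 12 h, against -0.21, -0.06 and -0.20 at 6 h (0.56 ± 0.09, adjusted p = 0.102). Without 6 h replicate 2 the median of the list was 0.24.

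Reactive astrocyte genes had 6 of 19 higher and 0 lower, with a median of 0.46, and of 0.23 after quantile normalization. Mean values per array were 1.05, 1.19 and 0.88 at 12 h, against 0.42, 0.51 and 0.55 at 6 h. Tgm1, a transglutaminase, had the smallest unadjusted p of the list (0.55 ± 0.11, adjusted p = 0.194). Serpina3n, a secreted protease inhibitor, had a difference of 1.41 and the filament gene Gfap 0.32. Both of these had a wide SE for the size of the difference, and neither was called. Of 14 markers of resting astrocytes 4 were lower and 0 higher (median -0.02), among them Aldh1l1, a folate enzyme (-0.41 ± 0.12), and Slc4a4, a bicarbonate transporter (-0.27).

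**Figure D3:**
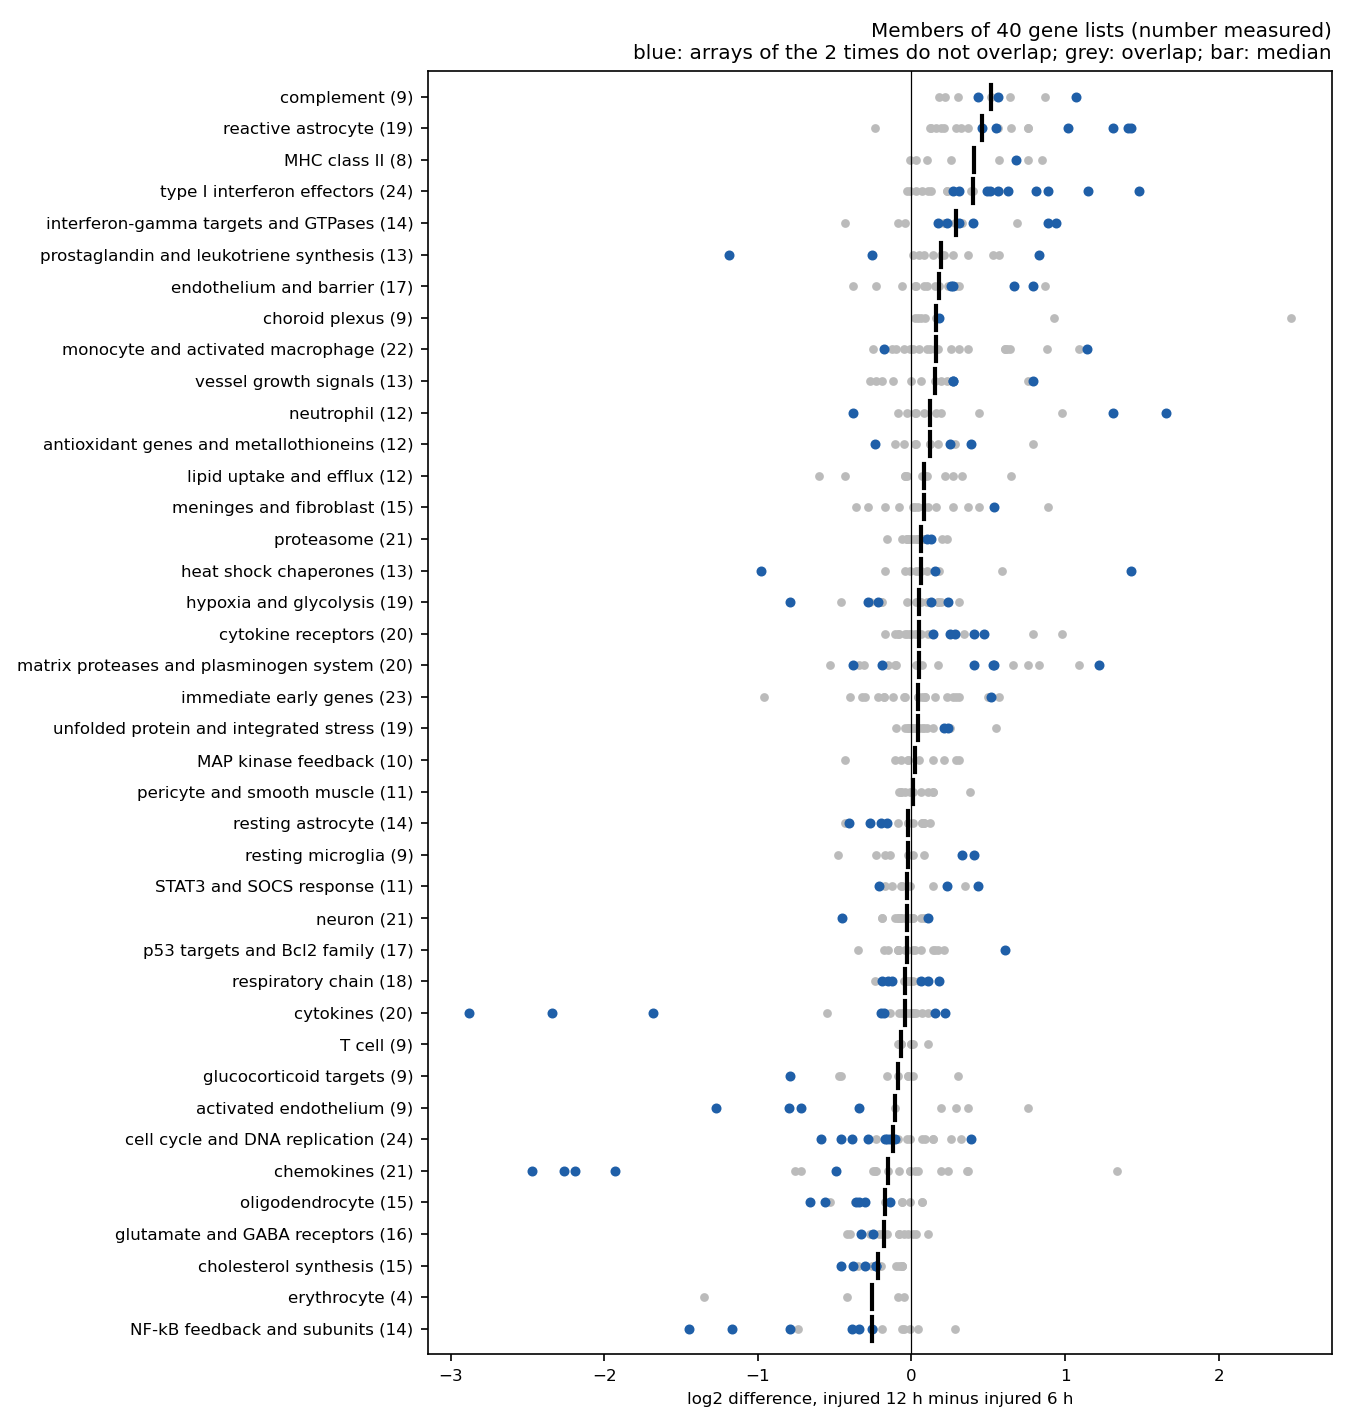
Each row is 1 of 40 gene lists with its number of measured genes, sorted by median, and the horizontal axis is the log2 difference of injured 12 h minus injured 6 h. Blue points are genes whose arrays of the 2 times do not overlap, grey points overlap, and the black bar is the median. Complement (0.52), reactive astrocyte (0.46), MHC class II (0.41) and type I interferon (0.40) lie highest, and NF-kB feedback (-0.26), erythrocyte (-0.26) and cholesterol synthesis (-0.22) lowest.

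Markers of leukocytes separated less clearly. The calprotectin genes S100a8 and S100a9 of neutrophils had differences of 0.16 ± 0.57 and 0.08 ± 0.78. S100a9 had 4.63, 4.74 and 4.38 at 12 h, against 3.45, 5.51 and 4.54 at 6 h, so the 12 h arrays lay within the range of the 6 h arrays. Slpi, a protease inhibitor, had 2.98, 4.08 and 2.34 at 12 h, against 0.31, 2.21 and 1.90 at 6 h (1.66 ± 0.66, adjusted p = 0.584). Of 12 neutrophil markers 2 were higher and 1, the collagenase gene Mmp8 (-0.38), was lower. The groups did not overlap for the neutrophil chemokines Cxcl1 and Cxcl2, whereas they overlapped for calprotectin.

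Monocyte and activated macrophage markers had counts near the shares over all genes. Of these 22 markers 1 was higher (4.55%, all genes 6.48%) and 1 was lower (4.55%, all genes 5.37%), with a median of 0.16. Their mean per array was 0.17, 1.20 and 0.11 at 12 h, against -0.05, 0.06 and 0.59 at 6 h, with 12 h replicate 2 far above the other 5 arrays. Lgals3, which encodes galectin-3 of phagocytes, had 0.24, 3.15 and 0.62 at 12 h, against -0.19, 0.19 and 0.73 at 6 h. Gpnmb, a lysosomal gene of such cells, had 0.83, 2.36 and 0.25 at 12 h, against 0.00, 0.00 and 0.02 at 6 h (1.14 ± 0.54). Of 9 measured markers of resting microglia 0 were lower and 2 (22.2%) were higher, beside 6.48% of all genes, with a median of -0.02. Among the 9, the purine receptor gene P2ry12 differed by -0.23 ± 0.31, with probe sets at 0 and -0.46. The P2ry12 arrays of both times lay far below the early shams.

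Of 17 measured genes of endothelial identity, 4 were non-overlapping and higher and 0 lower (median 0.18). Mean values of the list per array were 0.06, -0.40 and -0.44 at 12 h, against -0.52, -0.43 and -0.46 at 6 h, so replicate 1 was the 12 h array that stood above the 6 h range by a wide margin and the other two lay close to it. Tek, the angiopoietin receptor gene, had -0.16, -0.41 and -0.90 at 12 h, against -1.01, -1.74 and -1.10 at 6 h (0.79 ± 0.21, adjusted p = 0.367). Cldn5, the tight junction gene of the blood-brain barrier, had -0.06, -0.39 and -0.79 at 12 h, against -1.08, -1.25 and -0.92 at 6 h (0.67 ± 0.18, adjusted p = 0.367). Both had fallen between 3 and 6 h (Tek by 1.24, adjusted p = 0.0233, and Cldn5 by 1.07, adjusted p = 0.0204) and rose between 12 and 48 h (0.76 and 0.70). The endothelial transcription factor gene Sox18 (1.0 ± 0.26) and the endothelial surface gene Ecscr (1.06 ± 0.30) were also among the 12 largest non-overlapping differences in the higher direction.

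Id1, which encodes an inhibitor of bHLH transcription factors, had 0.20, 0.91 and -0.25 at 12 h, against -1.29, -0.98 and -0.74 at 6 h (1.29 ± 0.23, adjusted p = 0.153). It was called without 12 h replicate 3 (1.56, adjusted p = 0.0185) and after quantile normalization (1.48, adjusted p = 0.0278). Lox, which cross-links collagen, had 0.78, 0.70 and -0.19 at 12 h, against -0.87, -1.07 and -0.42 at 6 h (1.22 ± 0.35). In both genes replicate 3 was the lowest 12 h array, and the groups did not overlap. The same 12 h array was highest in Ttr, a choroid plexus gene, which had 1.97, 0.11 and 5.49 at 12 h, against -0.65, 1.07 and -0.27 at 6 h, and the choroid plexus list averaged 0.22, 0.01 and 1.04, against -0.12, 0.08 and -0.07. The part of choroid plexus RNA in the results was not tested.

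Metabolic and glial groups with at most 1 member among the early genes also had lower 12 h arrays. The cholesterol synthesis list averaged -0.07 in early shams, 0.18 at 3 h, 0.26 at 6 h, 0.05 at 12 h and -0.57 at 48 h. All 15 cholesterol synthesis genes had a lower mean, 5 of them non-overlapping, with a median of -0.22. Fdft1, the squalene synthase gene, had -0.08, -0.06 and -0.08 at 12 h, against 0.26, 0.38 and 0.27 at 6 h (-0.38 ± 0.07, adjusted p = 0.194). Idi1, an isomerase of the pathway that had also risen at 3 h, had -0.46 ± 0.13. Both fell between 12 and 48 h (Fdft1 by 0.51, adjusted p = 0.00195, and Idi1 by 1.10, adjusted p = 0.000783).

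Oligodendrocyte genes had 6 of 15 lower and 0 higher (median -0.17). Their list averaged -0.11 in early shams, 0.18 at 3 h, 0.08 at 6 h, -0.16 at 12 h and -0.06 at 48 h. The myelin gene Mog had -0.24, -0.16 and -0.84 at 12 h, against 0.02, 0.10 and 0.32 at 6 h (-0.56 ± 0.19, adjusted p = 0.507). Among transcription factors of the lineage, Olig1 was at -0.37, and Sox10 and Olig2 were each at 0.07. The last 2 were the only members of the list with a higher mean. Neuron markers had 1 of 21 lower (4.76%, all genes 5.37%) and 1 higher (4.76%, all genes 6.48%), with a median of -0.03. These counts are near the shares over all genes. The lower member was Camk2a (-0.45 ± 0.13). The 4 probe sets of Camk2a gave -0.31, -0.19, -1.05 and -0.25. Cell cycle genes had 8 of 24 lower and 1 higher (median -0.12). Cdk1, the mitotic kinase gene, had a difference of -0.59 ± 0.39 and rose by 3.12 between 12 and 48 h (adjusted p = 0.00102). Outside the lists, Aass, an enzyme of lysine breakdown, had -0.99, -0.72 and -0.55 at 12 h, against -0.02, 0.01 and -0.03 at 6 h (-0.74 ± 0.10, adjusted p = 0.0571).

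**Figure D4:**
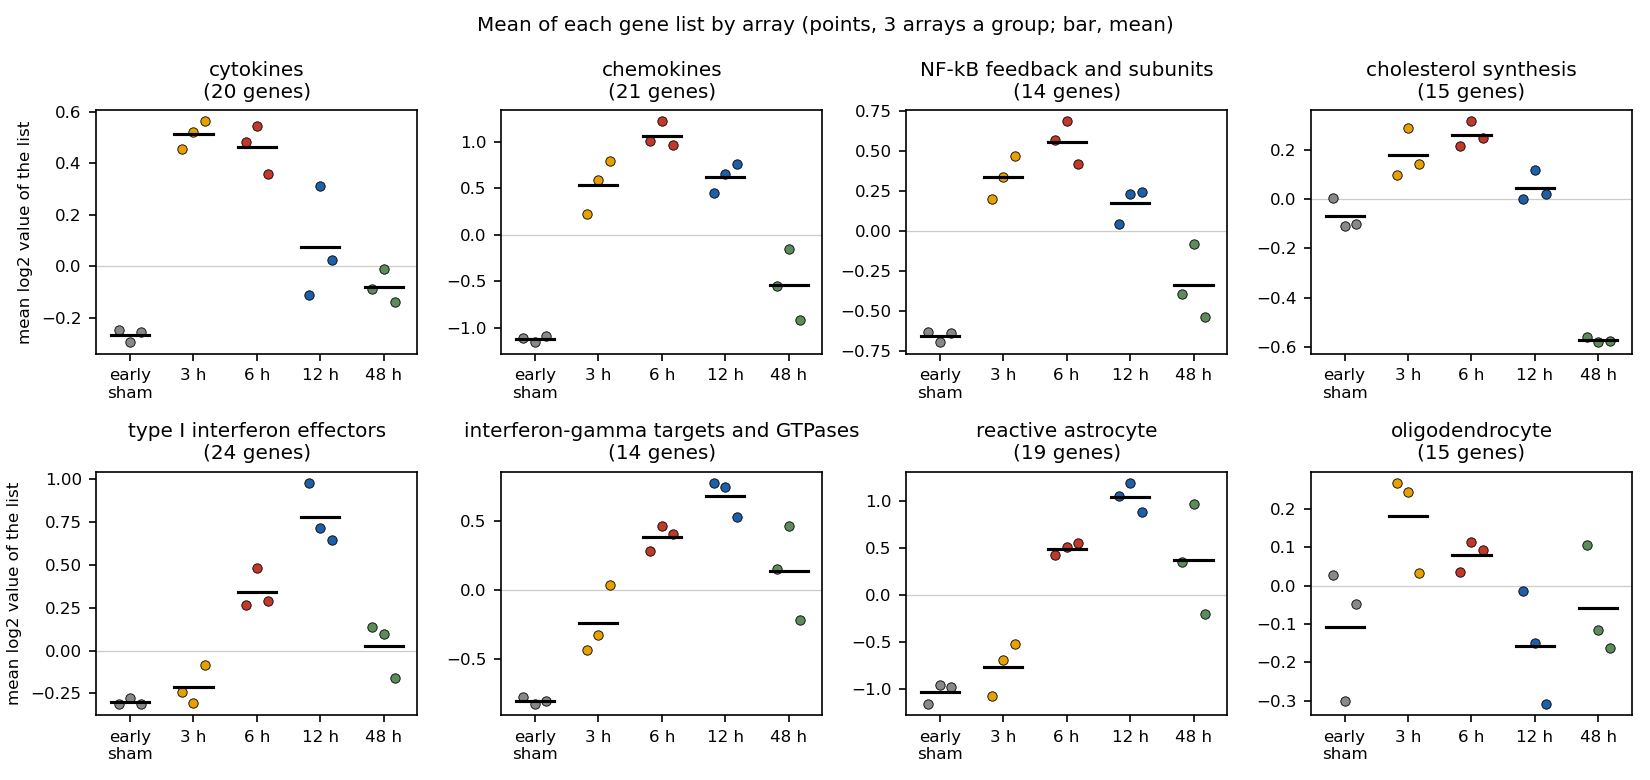
The mean log2 value of 8 gene lists is plotted per array (points, 3 arrays a group; bars are group means) over early shams, 3, 6, 12 and 48 h after injury. The 12 h arrays lie below the 6 h arrays for cytokines, chemokines, NF-kB feedback, cholesterol synthesis and oligodendrocyte genes, and above them for both interferon lists and reactive astrocyte genes.

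The 6 to 12 h step was tested against the 3 to 6 h step, as the difference between them, called the turn. The later step lasts longer, so a gene that moves at a constant rate also has a turn. A turn therefore does not by itself show a change of course at 6 h. With limma 0 genes passed, 861 had an unadjusted p under 0.05, and the smallest adjusted p was 0.138. Il6 had a difference of 0.52 ± 0.31 in the step before 6 h and -2.88 after it, a turn of -3.40 ± 0.54 (adjusted p = 0.166). Il6 passed with all 16 arrays in the model (adjusted p = 0.0329) and without 6 h replicate 3 (-4.25, adjusted p = 0.00676). Ccl4 had -1.19 ± 0.28 before 6 h, and Il1a already fell by 2.76 there (adjusted p = 0.00495). Tek (2.03 ± 0.36) and Cldn5 (1.74 ± 0.31) had turns in the opposite direction (adjusted p = 0.229 each).

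The neighbouring steps had more calls. Between 3 and 6 h 64 genes were higher (0.45%) and 33 lower (0.232%), and between 12 and 48 h 1006 were higher (7.08%) and 801 lower (5.63%). Ccl4 averaged -0.97 in early shams, 3.75 at 3 h, 2.55 at 6 h, 0.29 at 12 h and -0.84 at 48 h, and it fell again between 12 and 48 h (-1.13 ± 0.28, adjusted p = 0.0249). Il1b fell by 1.82 ± 0.42 in that later step (adjusted p = 0.0165), and Il6 had -0.73 ± 0.31 (adjusted p = 0.148).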

How the data were processed

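The submitters' processing notes name RMA. The deposited values were taken as log2, since the base of the logarithm is not given in the sources used here. The authors' values of each of 31099 probe sets have a median of 0 over the 16 arrays, as was checked. Of the probe sets 20832 carry exactly 1 gene symbol in the platform annotation. They were averaged per symbol into 14218 genes (9692 from 1 probe set), and 436 with several symbols were left out. No pair of arrays was a duplicate (closest root mean square difference 0.184).

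The step was tested with limma 3.58.1 in R 4.3.3 (lmFit and eBayes) in the 12 injured arrays, with 4 groups, 8 residual degrees of freedom and no replicate block. Early and late sets came from a model of all 16 arrays. Genes whose arrays do not overlap were counted without a test. The members, 40 gene lists and sets were chosen with earlier results of these data known. Genes named were the called genes, the 12 largest non-overlapping differences each way at an unadjusted p under 0.01 (112 lower and 149 higher were eligible), up to 3 members a list by unadjusted p, 5 each way per set, and a panel of 64 genes (63 measured). Other members named were chosen after their values were seen. The number of arrays limits the precision. Promoter sequences are RefSeq, build GRCr8.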

Additional observations from a re-analysis of the deposited data

How the results depend on the processing

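The number of arrays limits the step: 3 a time, and values centred per probe set show no signal over background. The 2 genes called became 0 with the 6 and 12 h arrays alone, 4 with quantile normalization (Id1 and Serpinb1a higher), 4 with array weights (Aass and Ccl3 added), 1 with a robust spread (Ccl4 lost, adjusted p = 0.0526), and 0 to 16 without 1 array, with 0 without 6 h replicate 1 or 2 and 16 without 12 h replicate 3 (8 higher and 8 lower). Non-overlapping genes ran from 1116 to 1833 lower and 1371 to 2093 higher without 1 array, since fewer arrays overlap less. For genes raised at 3 h the counts were 29 to 49 lower and 1 to 5 higher, and with an adjusted p under 0.01 for the set 14 lower and 0 higher of 30, with a median of -0.51. For genes raised at 48 h they were 69 to 96 lower and 143 to 295 higher, and with the stricter set 19 lower and 61 higher of 364. Quantile normalization gave list medians of 0.05 for vessel growth signals, -0.37 for activated endothelium and 0.23 for reactive astrocyte. Without 1 array the medians ran from 0.24 to 0.58 for complement, -0.06 to 0.06 for hypoxia and glycolysis, 0.05 to 0.18 for vessel growth signals, -0.13 to -0.05 for cell cycle, -0.06 to 0.00 for the respiratory chain, -0.08 to 0.01 for T cell, -0.34 to 0.05 for activated endothelium, 0.30 to 0.63 for reactive astrocyte, -0.06 to -0.01 for resting astrocyte and -0.33 to -0.15 for oligodendrocyte. The other 305 of 320 list medians under an alternative moved by less than the spread. Turns at 6 h numbered 4 with all 16 arrays (Acvrl1, Cd244l1, Il6 and Lsr) and 0 to 1 without 1 array. The difference of Il1r1 reversed in 1 of its 3 probe sets, at -0.11. Of 1324 comparisons over 91 named genes 1297 kept direction and side of the threshold. Apart from the causes stated, the cause was not tested.

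With the replicate number as a replicate block 3 genes were called (Il1b added, adjusted p = 0.033) and 0 turns. Same-numbered arrays of 6 and 12 h had correlated deviations of -0.19 to -0.02, and over all injured times 3 of 18 such pairs exceeded 0.1. The numbers were therefore not used to pair the arrays of the step. Same-numbered arrays of 12 and 48 h had 0.09, 0.19 and 0.19, and differently numbered ones -0.17 to -0.01. A shared processing order was not tested.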

Other observations

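Several groups outside the inflammatory signals had members that separated in opposite directions. Among genes of prostaglandin and leukotriene synthesis, Ptges, the prostaglandin E synthase gene, had 0.10, 0.87 and 1.46 at 12 h, against 2.02, 2.23 and 1.74 at 6 h (-1.19 ± 0.41, limma adjusted p = 0.524), while Alox5ap, a gene of leukotriene synthesis, was higher by 0.83 and Ptgs2, which makes the precursor of prostaglandin E, was at 0.57 with overlapping arrays. Of heat shock genes, Hspa1a, the inducible Hsp70 gene, had -0.17, 0.71 and 0.01 at 12 h, against 1.06, 1.41 and 1.03 at 6 h (-0.98 ± 0.31, adjusted p = 0.507), whereas Hspb1 was higher. In the hypoxia list Adm, the gene of the vessel-dilating peptide adrenomedullin, had 0.12, 0.23 and 0.92 at 12 h, against 1.49, 1.15 and 1.0 at 6 h (-0.79 ± 0.28), and the median over its 19 genes was 0.05. Proteasome genes (21, median 0.06) had 0 members that were non-overlapping and lower and 2 that were higher (9.52%). Unfolded protein and integrated stress genes (19, median 0.04) had 0 lower and 2 higher (10.5%). Pericyte and smooth muscle markers (11, median 0.01) had 0 lower and 0 higher. The shares over all genes were 5.37% lower and 6.48% higher, and lists this small do not set a count of 0 apart from them.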
